A study of Mus musculus with 6 samples.

Results

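A set of genes that receive and transmit the Hedgehog signal was examined by name: Gas1, Boc, Ptch1, Smo, Sufu, Hhip, Gli1, Gli2 and Gli3. They are 9 of the 20071 gene identifiers counted in MSCs, the mesenchymal stem cells of marrow stroma, from which osteoblasts arise. All MSCs came from the femurs of 6-week-old C57BL/6J littermates and were kept for 7 days in osteogenic medium with ascorbic acid, β-glycerophosphate and dexamethasone. The controls were Pcif1fl/fl MSCs, which carry loxP sites around exons 5 to 7 of Pcif1 and no Cre (3 libraries). The knockouts were Prrx1-Cre;Pcif1fl/fl MSCs, in which a Cre recombinase driven by the Prrx1 promoter of limb mesenchyme removes those exons (3 libraries). PCIF1 is the enzyme that methylates an adenosine next to the mRNA cap. Cells in the culture that do not express Prrx1-Cre keep the gene, and the labels do not say whether the 3 libraries of a genotype came from separate mice or cultures, so p-values measure the spread between these libraries, which may be technical.

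Hedgehog ligands bind the membrane protein PTCH1, helped by the co-receptors GAS1 and BOC. Without ligand, PTCH1 holds the membrane protein SMO inactive, and SUFU keeps the GLI transcription factors in check. Once SMO is released in the primary cilium, GLI2 and GLI3 act as activators, and the genes they turn on include Gli1, Ptch1 and Hhip, which are used as readouts of the pathway. GLI3 is mainly a repressor when the pathway is off. In the skeleton, Hedgehog signaling is known for its part in the growth plate and in the formation of osteoblasts.

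Gli2 and Gas1 were down-regulated in the knockouts, Gli2 by 5.38-fold and Gas1 by 2.09-fold. None of the 9 genes was up-regulated. The fold changes of Boc, Smo, Ptch1, Sufu and Gli3 were between 1.18-fold and 1.41-fold lower and missed the threshold of a Benjamini-Hochberg adjusted p under 0.05 in edgeR's quasi-likelihood test. Of the readout genes Gli1, Ptch1 and Hhip, Ptch1 was well counted, whereas Gli1 and Hhip were close to the limit of counting in both genotypes.

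Of the 9 genes, 7 passed the expression filter and were tested in one fit with all other genes that passed. Calls were 2 lower and 0 higher among these 7 genes, whereas 4.51% of all 13733 genes tested were called lower and 2.88% higher. Both called genes also changed by at least 1 on the log2 scale, the fold limit used in the study, which 2.50% of all genes met on the lower side. At an unadjusted p under 0.05, 6 of the 7 were lower and 0 higher, whereas 11.8% of all genes tested were lower and 9.56% higher at that p. DESeq2 and limma-voom each called the same 2 genes lower and 0 higher. In all 7, the highest knockout library lay below the lowest control library, an order found in 15.7% of all genes tested. The median log2 fold change was -0.44 over the 7 genes and 0.0017 over all genes tested.

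PCIF1, the enzyme targeted in the knockouts, acts on transcripts that begin with an adenosine, so the annotated starts of the genes are shown first. RefSeq promoters on GRCm38.p6 were at hand for 7 of the 9 genes, all but Gli1 and Boc. Each line below gives the last 29 bases before the annotated start and, in capitals, the first transcribed base, on the strand of the gene from 5′ to 3′. The 3 genes with an annotated A at the start come first.
Gli2, chr1:119053619-119053648, minus strand: cgcggactttttttcaaactcctctcatcA
Gas1, chr13:60177535-60177564, minus strand: aagggcgccggagagtggagaaaggagaaA
Hhip, chr8:80058008-80058037, minus strand: aaaaagaagaagaaaagagggagcgaaacA
Gli3, chr13:15463694-15463723, plus strand: gctcaacttttgcaaccggggcgctcggcC
Smo, chr6:29735468-29735497, plus strand: gcgaggcccgtgcattccagagagcagggC
Ptch1, chr13:63565735-63565764, minus strand: gccttcccgcgagctggatgtgggcagcgG
Sufu, chr19:46396867-46396896, plus strand: gaaagggcacgctgacgccccgccccttgG

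Gli2 and Gas1, the 2 genes called lower, were both annotated to start with A, and the 4 other tested genes with a promoter entry (Gli3, Smo, Ptch1 and Sufu) were annotated to start with C or G. Among all 32851 promoters of the table, 34.36% had A at this base. Over all tested genes with a single annotated start, the share called lower was 4.25% of 2399 genes with A and 4.02% of 6100 genes with another base, with median log2 fold changes of 0.00051 and 0.0095. Starts were annotated and not measured in these cells. The outermost GENCODE starts of Gas1 (60177365), Gli3 (15463235), Ptch1 (63573598), Hhip (80058006) and Smo (29735503) differ from those of RefSeq. The heptamer CCACCCA, the core of the sequence that GLI proteins bind, was searched on both strands from 250 bases before to 50 bases after each start. It was present in 0 of the 7 promoters and in 9.30% of all promoters of this length.

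The libraries held between 20258209 and 28227696 counts. Pcif1fl/fl replicate 3 stood apart, with 3.63% of its counts on mitochondrial genes against 1.40% to 1.57% in the other 5 libraries, so results are also given without it. Pcif1 itself, whose gene-level counts do not show a deletion of single exons, had a log2 fold change of -0.085 (SE 0.092, edgeR, adjusted p = 0.645). Xist, transcribed from the inactive X chromosome, ranged from 232 to 443 CPM (counts scaled to library size, here with TMM factors) in the controls and from 0.72 to 1.79 CPM in the knockouts. The Y-linked genes Ddx3y and Eif2s3y were counted in all 6 libraries and were higher in the knockouts. The sex of the cells and the genotype therefore cannot be told apart. All 9 Hedgehog genes lie on autosomes, and an effect of sex on their levels was not tested. Prrx1 was at 211 to 283 CPM in the controls and 276 to 283 CPM in the knockouts, and Col1a1 was between 3485 and 6359 CPM over all 6 libraries, so mesenchymal markers were present. Macrophage markers were abundant too: the summed level of 13 genes was 32108 to 35531 CPM in the controls and 33073 to 36237 CPM in the knockouts, most of it Lyz2, with 0 of 13 called by edgeR, while 1 was lower and 2 higher at an unadjusted p under 0.05 and DESeq2 called 2 higher.

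Gas1 (ENSMUSG00000052957, chromosome 13, 60174405 to 60177365 on the minus strand of GRCm38) encodes a membrane-anchored co-receptor that presents Hedgehog ligand to PTCH1. Its level was 99.3, 81.2 and 88.6 CPM in control replicates 1 to 3. In knockout replicates 1 to 3 it was 47.0, 38.2 and 43.6 CPM. Every knockout library was thus well below the lowest control. The log2 fold change was -1.06 (SE 0.12, 95% interval -1.33 to -0.79, edgeR, adjusted p = 0.00124). Over its exons, 19.9% of the bases overlap the antisense gene Gm48488, and whether the counting used strand is not given in the sources used here, so reads of the pair cannot be told apart in that stretch.

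Boc (ENSMUSG00000022687, chromosome 16, 44485049 to 44558897), the other co-receptor, had 16.9, 13.6 and 20.2 CPM in the control replicates and 11.6, 11.5 and 12.9 CPM in the knockout replicates. The groups did not overlap, although control replicate 2 was within 1 CPM of knockout replicate 3. The log2 fold change was -0.49 (SE 0.16, 95% interval -0.87 to -0.12, edgeR, adjusted p = 0.123) and did not pass the threshold. Cdon, a co-receptor related to Boc and named here outside the rule for naming genes, was at 19.1, 19.6 and 18.9 CPM in the controls and 16.6, 16.1 and 18.3 CPM in the knockouts, with a log2 fold change of -0.18 (adjusted p = 0.412).

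Ptch1 (ENSMUSG00000021466, chromosome 13, 63508328 to 63573598), the receptor, was at 17.7, 13.8 and 14.6 CPM in the controls and at 11.2, 12.2 and 10.6 CPM in the knockouts. All 3 knockout libraries were below all 3 controls, yet the log2 fold change of -0.44 (SE 0.14, 95% interval -0.76 to -0.12) did not pass the threshold (edgeR, adjusted p = 0.110). Hhip (ENSMUSG00000064325, chromosome 8, 79965851 to 80058006), a decoy that binds ligand at the cell surface, had 5, 2 and 4 counts in the controls and 2, 2 and 0 in the knockouts. These values overlap, and the ratio of the summed levels, knockout over control, was 0.450 with a 95% counting interval of 0.104 to 1.52.

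Smo (ENSMUSG00000001761, chromosome 6, 29735503 to 29761365), the signal transducer that PTCH1 holds inactive, was at 67.3, 63.0 and 46.1 CPM in the controls and at 43.8, 42.8 and 43.1 CPM in the knockouts. Control replicate 3 was nearer to the knockouts than to the other two controls. The log2 fold change was -0.44 (SE 0.14, 95% interval -0.77 to -0.12, edgeR, adjusted p = 0.112). Without that library it was -0.59 (adjusted p = 2.05e-05), which passed the threshold.

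Sufu (ENSMUSG00000025231, chromosome 19, 46396896 to 46488804), the inhibitor that binds GLI proteins in the cytoplasm, was at 43.2, 41.6 and 42.5 CPM in the controls and at 32.6, 31.8 and 37.2 CPM in the knockouts. The controls were tightly grouped and all lay above the knockouts. The log2 fold change was -0.33 (SE 0.10, 95% interval -0.56 to -0.093, edgeR, adjusted p = 0.0998).

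**Figure D1:**
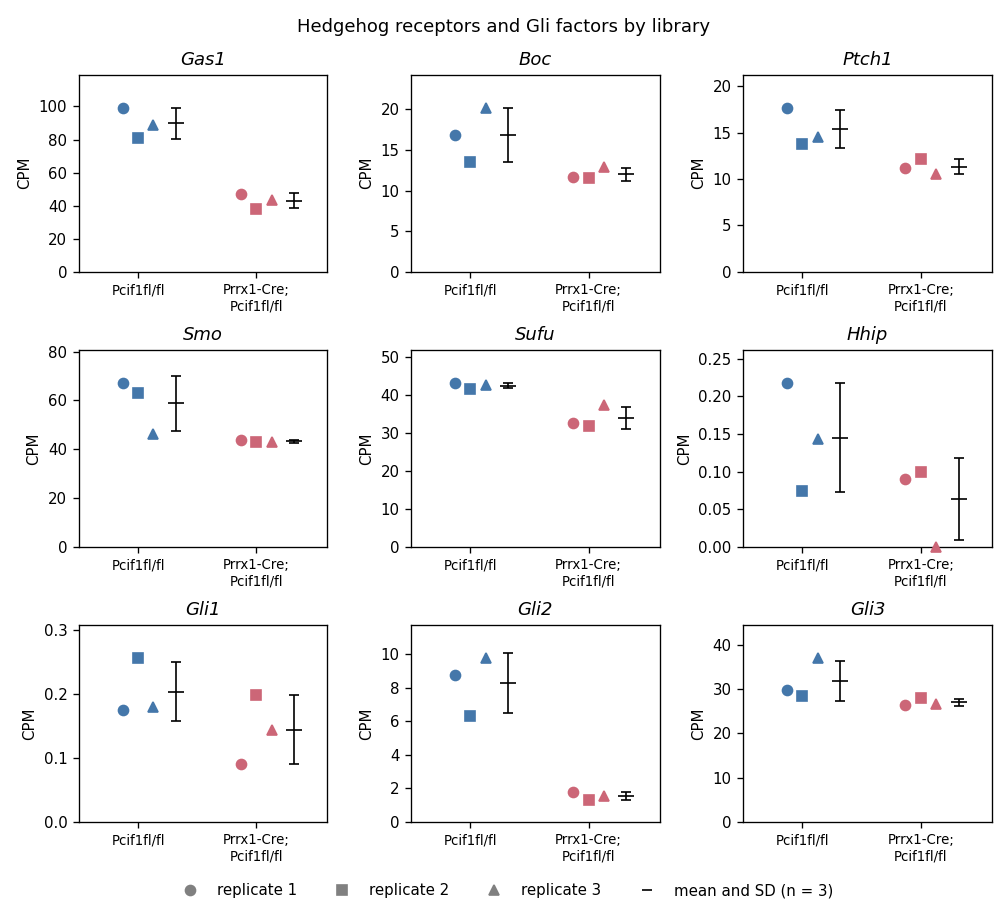
Level of each of the 9 Hedgehog genes in CPM (vertical axes, each starting at 0) in the 3 Pcif1fl/fl libraries (blue) and the 3 Prrx1-Cre;Pcif1fl/fl libraries (red), with symbols for replicates 1 to 3 and bars for the mean and SD. Gli2 and Gas1 show the widest gap between genotypes, whereas Gli1 and Hhip overlap at levels below 0.3 CPM.

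Gli2 (ENSMUSG00000048402, chromosome 1, 118834132 to 119053619 on the minus strand), the main activator among the GLI factors, was counted 200, 172 and 273 times in the controls and 39, 26 and 32 times in the knockouts. These counts corresponded to 8.74, 6.32 and 9.79 CPM and to 1.76, 1.29 and 1.54 CPM. Even the lowest control was more than 3 times as high as the highest knockout. The log2 fold change was -2.43 (SE 0.23, 95% interval -2.96 to -1.90, edgeR, adjusted p = 0.000558), which leaves 18.6% of the control level. No annotated gene overlaps its exons. In bulk RNA, fewer cells with Gli2 transcript and less transcript per cell cannot be told apart.

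Gli3 (ENSMUSG00000021318, chromosome 13, 15463235 to 15730026), the GLI factor with the strongest repressor form, was at 29.9, 28.5 and 37.1 CPM in the controls and at 26.5, 28.0 and 26.7 CPM in the knockouts. Control replicate 2 and knockout replicate 2 were nearly level. The log2 fold change was -0.24 (SE 0.12, 95% interval -0.52 to 0.050, edgeR, adjusted p = 0.331). The 95% intervals of Gli2 and Gli3 did not overlap.

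Gli1 (ENSMUSG00000025407, chromosome 10, 127329882 to 127341974), a target and amplifier of the pathway, had 4, 7 and 5 counts in the controls and 2, 4 and 3 in the knockouts. The groups overlapped and the gene did not pass the expression filter. Summed over libraries this was 0.205 CPM (95% counting interval 0.117 to 0.333) against 0.143 CPM (0.0652 to 0.271), a ratio of 0.695 with a counting interval of 0.271 to 1.67. This interval holds both a fall and a rise, so no direction can be stated at this depth. In an edgeR fit without the filter the adjusted p was 0.776 for Gli1 and 0.664 for Hhip.

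Given as RPKM, that is, CPM per kilobase of transcript, the levels of the 9 genes in the controls ran from Gas1 at the top, with 30.3 ± 3.08 (SD, n = 3), through Smo with 15.6 ± 2.97 and Sufu with 9.39 ± 0.17. Gli3 with 3.90 ± 0.57 and Boc with 3.80 ± 0.75 came next and did not differ beyond their spread. Ptch1 followed with 1.99 ± 0.27 and Gli2 with 1.25 ± 0.27. Gli1 with 0.050 ± 0.011 and Hhip with 0.016 ± 0.0080 were at the bottom. The knockouts held the same order by mean, with Gas1 at 14.5 ± 1.51, Smo at 11.4 ± 0.14, Sufu at 7.49 ± 0.65, Gli3 at 3.31 ± 0.096, Boc at 2.70 ± 0.18, Ptch1 at 1.46 ± 0.11 and Gli2 at 0.230 ± 0.035. The distance from Ptch1 to Gli2 was wider there.

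**Figure D2:**
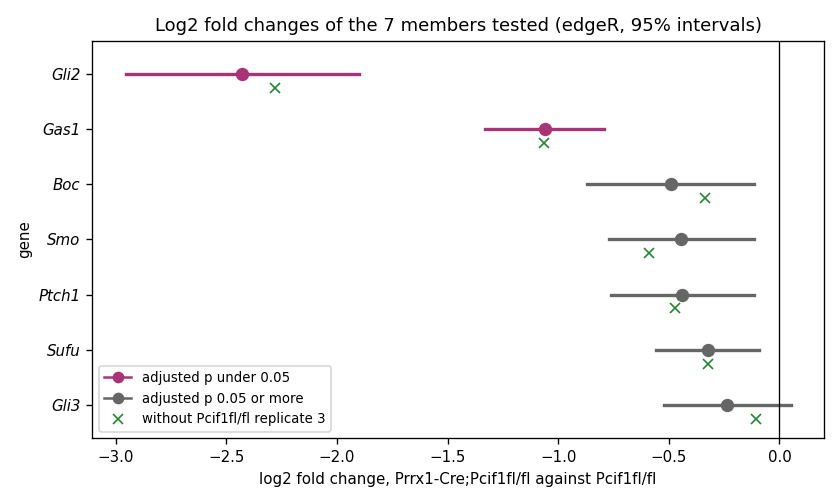
Log2 fold change of the 7 Hedgehog genes tested, Prrx1-Cre;Pcif1fl/fl against Pcif1fl/fl (horizontal axis), with 95% intervals from edgeR, purple for an adjusted p under 0.05, and green crosses for the value without Pcif1fl/fl replicate 3. Gli2 at -2.43 and Gas1 at -1.06 stand to the left of the other 5, which lie between -0.49 and -0.24.

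Relative to one another, the GLI factors changed in make-up. Of the summed length-scaled level of Gli1, Gli2 and Gli3, Gli2 made up 26.2%, 21.1% and 24.3% in the control libraries and 7.49%, 5.32% and 6.55% in the knockout libraries. The groups did not overlap. The mean was 23.9% ± 2.57 (SD, n = 3) against 6.45% ± 1.09, a difference of -17.4 percentage points (exact two-sided permutation test, p = 0.1, the smallest p that 3 against 3 libraries allow). Gli3 made up 72.9% to 77.5% in the controls and 91.9% to 93.3% in the knockouts. Gli1 stayed at or below 1.41% in every library.

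**Figure D3:**
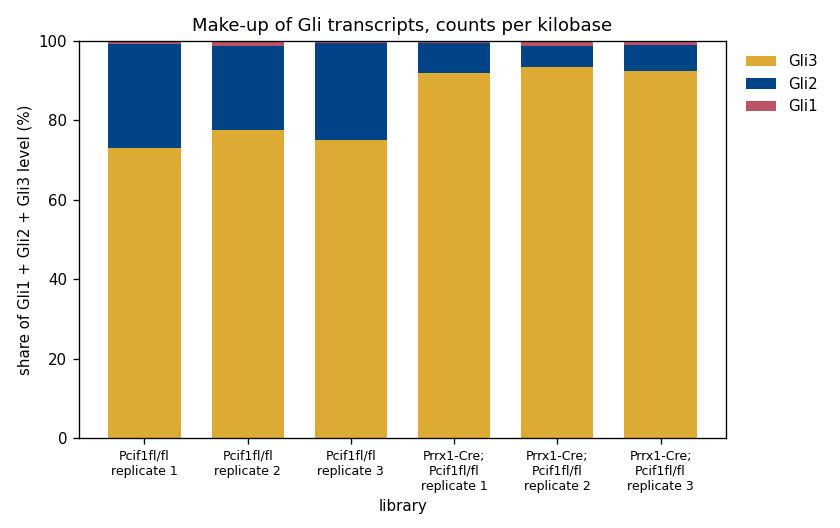
Share of Gli3 (yellow), Gli2 (blue) and Gli1 (red) in the summed length-scaled level of the 3 genes, in percent (vertical axis), for each of the 6 libraries (horizontal axis). The Gli2 share lies between 21.1% and 26.2% in the controls and between 5.32% and 7.49% in the knockouts.

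The balance of receptor to transducer was examined in the same libraries. The log2 ratio of Ptch1 to Smo per length was -2.96 ± 0.26 (SD, n = 3) in the controls and -2.97 ± 0.11 in the knockouts, a difference of -0.010 that was smaller than the spread within either genotype (exact two-sided permutation test, p = 1).

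The calls on Gli2 and Gas1 were met in all 13 alternative fits, with log2 fold changes between -2.59 and -2.28 for Gli2 and between -1.13 and -0.98 for Gas1. The other tested genes had negative log2 fold changes in all 13 as well, but Gli3 and Boc passed the threshold in 0 of them. Ptch1, Smo and Sufu passed in 1, the fit without Pcif1fl/fl replicate 3, in which Ptch1 had a log2 fold change of -0.47 (edgeR, adjusted p = 0.0159) and Sufu of -0.32 (adjusted p = 0.0148). In the same fit the log2 fold change of Gli3 was -0.11 and that of Boc -0.33, both nearer to 0 than with all libraries. That fit called 5 of the 7 genes lower, and it also called 10.4% of all genes lower.

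The genes whose profile over the 6 libraries was most like that of Gli2 were Gm31520, C3 and Islr, with root mean square differences of 0.12, 0.13 and 0.13 on the log2 scale after centring, among 12636 genes ranked. C3 is a component of complement, and Islr encodes a surface protein of stromal cells. These genes were picked by their likeness to Gli2 in the same libraries, so a similar fall with genotype was part of the choice. Their levels fell from 23.2 ± 3.64 to 5.27 ± 0.59 CPM for Gm31520, from 42.1 ± 8.62 to 8.96 ± 2.08 CPM for C3 and from 137 ± 25.2 to 28.6 ± 2.16 CPM for Islr. Phospho2, Trp53inp1 and Lmbr1l were nearest to Gli1, but Gli1 varied by only 0.11 around its mean on this scale and its profile rests on 2 to 7 counts a library.

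Among the genes that make and release the ligand, 5 of 9 could be tested. None passed the threshold in edgeR, where 4.51% of all genes tested were lower and 2.88% higher. At an unadjusted p under 0.05, 1 was lower and 0 higher, against 11.8% and 9.56% of all genes tested. DESeq2, which called 5.26% of all genes lower, and limma-voom each called 1 lower. That gene was Scube3, which encodes a secreted protein that helps to release or carry ligand, at 2.36, 2.21 and 2.29 CPM in the controls and 0.585, 0.548 and 1.44 CPM in the knockouts (log2 fold change -1.41, SE 0.37, edgeR, adjusted p = 0.0568). Knockout replicate 3 was the highest of its group and still below all controls. The ligand genes themselves were hardly counted: Ihh had 8 counts over the controls and 10 over the knockouts, Dhh had 3 and 7, and Shh was not analysed here. Scube2 had 23 and 6 counts and was not tested. Disp1, which exports ligand, had a log2 fold change of -0.24 (adjusted p = 0.363), and Disp2, Scube1 and Hhat, the acyltransferase that lipidates ligand, had values of -0.047, -0.55 and -0.056 (adjusted p = 0.946, 0.487 and 0.865).

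Of 15 tested genes for other surface regulators of reception, 2 were lower and 0 higher in edgeR, where 4.51% and 2.88% of all genes were called. At an unadjusted p under 0.05, 3 were lower and 1 higher, and DESeq2 and limma-voom each called 2 lower and 0 higher. Both lower genes, Evc and Evc2, encode partner proteins at the base of the cilium that bind SMO and pass its signal on. Evc was at 27.1, 25.6 and 24.9 CPM in the controls and 19.0, 18.7 and 17.9 CPM in the knockouts (log2 fold change -0.48, SE 0.10, adjusted p = 0.0263). Evc2 was at 45.6, 37.6 and 37.3 CPM in the controls and 27.8, 25.7 and 28.8 CPM in the knockouts (log2 fold change -0.55, SE 0.12, adjusted p = 0.0263). Both were below the controls in every knockout library, an order found in 15.7% of all genes tested. They are neighbours on chromosome 5, read from opposite strands. When each of the 6 libraries was left out in turn, both passed the threshold only without Pcif1fl/fl replicate 3.

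The genes that act inside the cell were read against the same background of 4.51% lower and 2.88% higher over all genes tested. Of 24 intracellular transducers and Gli-processing genes, such as kinases and ubiquitin ligases, 0 were called in either direction by edgeR, DESeq2 or limma-voom, with 2 lower and 1 higher at an unadjusted p under 0.05. Their log2 fold changes lay between -0.42 and 0.31, around a median of -0.072. Of 32 genes of primary cilium transport, 0 were lower and 1 higher in edgeR, with 6 lower at an unadjusted p under 0.05 (11.8% of all genes tested were lower at that p) and 1 lower in DESeq2 and 0 in limma-voom. The higher gene was Wdr35, a part of the complex that carries cargo back from the ciliary tip, at 44.4, 44.9 and 37.2 CPM in the controls and 57.3, 57.6 and 55.7 CPM in the knockouts (log2 fold change 0.43, SE 0.10, adjusted p = 0.0438). Its call was also lost in all leave-outs but that of Pcif1fl/fl replicate 3, and with total-count scaling.

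Genes reported as Hedgehog targets in one tissue or another went both ways: of 26 tested, 5 were lower and 4 higher. At an unadjusted p under 0.05, 7 were lower and 6 higher. DESeq2 called 8 lower and 5 higher, and limma-voom 4 and 4. Sfrp1, a secreted WNT inhibitor, was at 690, 582 and 732 CPM in the controls and 118, 130 and 99.3 CPM in the knockouts (log2 fold change -2.53, SE 0.14, adjusted p = 5.23e-05). Bmp4, a bone morphogenetic protein, was at 39.5, 34.5 and 43.7 CPM against 12.2, 16.5 and 14.5 CPM (log2 fold change -1.44, SE 0.15, adjusted p = 0.000764). Foxc1, a transcription factor of skeletal and marrow stromal cells, was at 90.8, 68.1 and 90.1 CPM against 40.2, 41.7 and 43.6 CPM (log2 fold change -0.99, SE 0.13, adjusted p = 0.00257). These 3 did not overlap between genotypes, and the knockout libraries were the lower ones, an order found in 15.7% of all genes tested. The remaining lower genes, Nkx3-2 with a log2 fold change of -2.16 and the BMP antagonist Nog with -1.37, were outside the rule for naming genes and were chosen after their values were seen. Nog passed the threshold in 1 of 6 leave-outs, that of Pcif1fl/fl replicate 3, and not in limma-voom. Nkx3-2 passed in 5, all but that of knockout replicate 1, while Sfrp1, Bmp4 and Foxc1 passed in 6 of 6.

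Ccnd1, which encodes cyclin D1 and drives entry into the cell cycle, was higher in the knockouts, at 406, 379 and 354 CPM in the controls and 611, 649 and 599 CPM in the knockouts (log2 fold change 0.71, SE 0.091, adjusted p = 0.00248). Of its exonic bases, 23.4% overlap an antisense gene. Cxcl14, a chemokine, was at 14.4, 12.7 and 13.1 CPM against 23.4, 22.2 and 20.8 CPM (log2 fold change 0.73, SE 0.12, adjusted p = 0.00694). Tbx3, a T-box transcription factor of limb development, was at 3.32, 3.71 and 3.66 CPM against 7.07, 6.27 and 7.17 CPM (log2 fold change 0.94, SE 0.15, adjusted p = 0.00780). All 3 were above the controls in every knockout library, and Ccnd2 (log2 fold change 0.48), chosen after its value was seen, was the fourth. Ccnd1 passed the threshold in 6 of 6 leave-outs, Cxcl14 in 5, Tbx3 in 4 and Ccnd2 in 3. Of 10 cell-cycle genes not counted among the targets, 1 was lower and 0 higher in edgeR, against 4.51% and 2.88% of all genes tested. At an unadjusted p under 0.05, 6 were lower and 0 higher, against 11.8% and 9.56% of all genes tested. DESeq2, which called 5.26% of all genes lower, called 5 lower and limma-voom 1 lower, both with 0 higher.

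Over these 5 lists together, 102 of 119 genes were tested, of which 7 were lower (6.86%, against 4.51% of all genes tested) and 5 higher (4.90%, against 2.88%). The median log2 fold change was -0.094, and 68 of the 102 were negative, whereas 49.7% of all genes tested had a negative value. Leaving out one library moved these counts to between 3 and 15 lower and between 1 and 11 higher, the highest of both without Pcif1fl/fl replicate 3 and the lowest of both without knockout replicate 1. Over all genes, 10.4% and 2.32% were called lower in these fits.

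**Figure D4:**
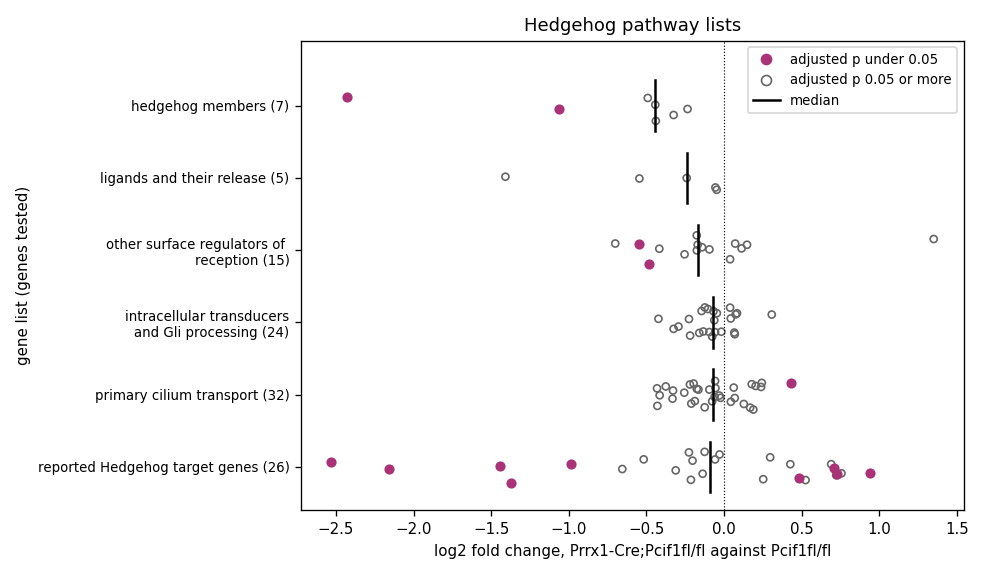
Log2 fold change (horizontal axis, Prrx1-Cre;Pcif1fl/fl against Pcif1fl/fl) of each tested gene in the Hedgehog lists (rows, with the number of genes tested), filled purple for an adjusted p under 0.05 and with a black line at the median. The medians of the 5 other lists lie between -0.24 and -0.069 and that of the 7 receptor and Gli genes at -0.44, and only the targets hold calls on both sides of 0.

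Markers of other cell states moved with the genotype beside Gli2 and Gas1. Over all genes tested, 4.51% were called lower and 2.88% higher in edgeR, while 11.8% were lower and 9.56% higher at an unadjusted p under 0.05. Of 8 adipocyte genes tested, 5 were lower and 0 higher in edgeR, with 1 higher at an unadjusted p under 0.05. DESeq2 called 1 of them higher and limma-voom 0. Adipoq was between 42.9 and 53.8 CPM in the controls and between 0.29 and 1.49 CPM in the knockouts, and Plin1 and Cfd had 0 counts in all 3 knockout libraries, but the summed level of the 8 genes overlapped (763 to 803 CPM against 662 to 863 CPM). Of 15 stromal and osteoblast genes tested, 6 were lower and 2 higher. The summed level of that list overlapped, at 23261 to 27595 CPM in the controls and 25241 to 34320 CPM in the knockouts. Cxcl12 fell by 2.44 and Lepr by 2.72 on the log2 scale, both markers of marrow reticular stroma. The osteoblast genes Sp7, Ibsp and Alpl fell by 1.88, 1.25 and 1.11 and the mesenchymal receptor gene Pdgfra by 0.42, whereas Col1a1 and Col1a2, which encode the chains of type I collagen, rose by 0.61 and 0.64. These 8 are all the calls in that list and were named after their values were seen. Endothelial genes summed to 33.2 to 45.3 CPM in the controls and 30.5 to 35.2 CPM in the knockouts, with 0 of 8 called in edgeR, 1 lower and 1 higher at an unadjusted p under 0.05 and 1 lower in DESeq2. Chondrocyte genes summed to 43.6 to 55.0 CPM and 35.1 to 41.6 CPM, with 2 of 5 lower and 0 higher, and smooth muscle genes to 508 to 673 CPM and 545 to 571 CPM, with 2 of 8 lower and 0 higher. In each of the chondrocyte and smooth muscle lists, 1 gene was higher at an unadjusted p under 0.05 and in DESeq2, and 0 in limma-voom. On the lower side, chondrocyte genes numbered 2 at that p, 2 in DESeq2 and 2 in limma-voom, and smooth muscle genes 4, 3 and 2. The part of a shifted mix of cells in the levels of Gli2 and Gas1 was not tested.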

How the data were processed

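RNA-seq of MSCs was made from poly(A) RNA. The labels show 3 libraries per genotype, whereas the series' design text speaks of duplicates. The deposited values are raw read counts, one per gene and library. HISAT2 was used by the authors for alignment to mm10, and the tool, annotation and strand setting of the counting are not given in the sources used here. Of 20163 rows, 92 repeated an identifier with the same counts, and 20071 were used.

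Differences were tested with the quasi-likelihood test of edgeR 4.0.16 under R 4.3.3, after filterByExpr and TMM normalization and with no covariate, over 13733 genes, with Benjamini-Hochberg adjustment over all of them. The SE of a log2 fold change was the value divided by the square root of its F statistic. CPM values were scaled by TMM factors, and RPKM divided them by the longest basic transcript of GENCODE M21 on GRCm38, which held 20059 of the identifiers. Counting intervals (95%) cover counting error only, since PCR copies of a molecule were not marked. Alternatives were DESeq2 1.42.0, limma-voom (limma 3.58.1), RLE and total-count scaling, no filter, a mean of at least 10 counts, the replicate number as a block, the study's fold limit, and leaving out each library.

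The 9 genes and the lists were chosen with earlier results of these data known. The rule for naming genes took all 9 members, every gene for ligands and their release, and up to 6 genes with the smallest p below the threshold in each other pathway list. It also took the 3 genes with a mean of at least 1 CPM nearest to Gli1 and to Gli2, compared as log2 of CPM plus 0.5. Of the listed genes, Shh, Zic1, Acan and Col9a1 were not analysed here.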

Additional observations from a re-analysis of the deposited data

How the results depend on the processing

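All 7 tested Hedgehog genes kept a negative log2 fold change under the 13 alternative fits, and Gli2 and Gas1 kept their calls. The number of the 7 called lower was 2 in every alternative except 1: leaving out one library at a time gave 2 to 5, with 5 (Gas1, Gli2, Ptch1, Smo and Sufu) without Pcif1fl/fl replicate 3, which also raised the calls over all genes from 620 to 1447 lower and from 396 to 1544 higher. The cause was not tested. Of the other pathway genes, 12 of 117 rather than 7 of 102 tested were lower with DESeq2, which called 5.26% of all genes lower, 10 of 117 were lower without the expression filter, and 4 were lower and 0 rather than 5 higher with the study's fold limit. Leaving out one library gave 3 to 15 lower and 1 to 11 higher: omitting Pcif1fl/fl replicate 3 gave 15 and 11, whereas omitting Prrx1-Cre;Pcif1fl/fl replicate 1 gave 3 and 1. The lower count was 4 without control replicate 1, control replicate 2 or knockout replicate 2, and the higher count was 3 without knockout replicate 2 and 2 without knockout replicate 3. Bmp4, Foxc1 and Sfrp1 were lower and Ccnd1 was higher in all of these leave-outs. By counts not divided by transcript length, the Gli2 share differed by -15.1 percentage points. The difference in the log2 ratio of Ptch1 to Smo lay between -0.14 and 0.12 when one library was left out. Replicate numbers did not pair the libraries: the correlations of same-numbered deviations were 0.055, -0.045 and -0.013, and only number 1 correlated best with its own. With the replicate number as a block, 2 of the Hedgehog genes were lower, as before, and the calls over all genes went to 503 lower and 267 higher. Among the other pathway genes, Evc, Evc2 and Wdr35 were called without the block and not with it, and Foxm1 the other way round. Gli1 and Hhip, with at most 7 counts in a library, allow no statement on direction at this depth.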
